A study of Rattus norvegicus with 32 samples.

Results

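The metabotropic glutamate receptors were described here by 6 genes of the 32883 in the hippocampal count tables, chosen by their symbols: Grm5 of group I, Grm2 and Grm3 of group II, and Grm4, Grm7 and Grm8 of group III. All 6 were found in both tables and passed the filter on low counts in every comparison. Hippocampal RNA was sequenced from 32 Sprague-Dawley rats at postnatal day 65 (P65), 16 male and 16 female. The dams of the formerly iron-deficient rats had been fed an iron-deficient diet from early gestation into the first postnatal week and an iron-sufficient diet thereafter. The groups were always iron-sufficient (IS), iron-sufficient with choline given to the dam in later gestation (ISch), formerly iron-deficient (FID) and formerly iron-deficient with prenatal choline (FIDch), with 4 rats of each sex in each. All the rats were on an iron-sufficient diet by P65, so the groups differed in early-life iron and prenatal choline and not in the diet at the time of sampling. The dietary protocol was described for males, with 1 rat taken from each litter, and the labels call the FID and FIDch groups iron deficient. The male libraries form sequencing batch I and the female libraries batch II, with RNA from different extraction kits, so sex, batch and kit cannot be told apart.

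These receptors are G protein-coupled receptors for glutamate that tune synaptic transmission rather than carrying the fast current. Group I receptors couple to Gq and phospholipase C and sit mostly at the postsynaptic side, where Homer and Shank proteins tether them. Group II and group III receptors couple to Gi/o, lower cyclic AMP and restrain transmitter release, many of them at presynaptic terminals. In the hippocampus mGlu2, the product of Grm2, is known from the granule cells of the dentate gyrus and their mossy fibres and from cortical inputs, and mGlu3 is also an astrocyte receptor.

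Totals ranged from 3515806 to 9517503 counts per male library and from 18439999 to 26616318 per female library, and the shallowest was that of male FIDch replicate 2. Levels are given as TMM-scaled CPM (counts of a gene relative to the library's total), which is not divided by gene length, so they are compared between rats and not between genes. Grm4 was read with 22 to 106 counts per male library and 115 to 334 per female library, and Grm8 with 22 to 78 and 60 to 256. The other 4 receptors had at least 157 counts in every library. The rows of neuronal markers (Rbfox3, Snap25, Syt1, Camk2a, Neurod6 and Slc17a7) summed to between 7770 and 9300 CPM in all 32 libraries. The lowest of these was female FIDch replicate 4, which stood apart from the other 3 FIDch females in its marker levels. Its CA1 list summed to 1170 CPM against 540 to 744 CPM in those 3, its CA2 and CA3 list to 520 CPM against 663 to 682 CPM, and its blood list to 312 CPM against 98.1 to 130 CPM. In CA1 markers those 3 lay below every female of the other groups. The sums there were 756 to 1050 CPM in IS, 799 to 1090 CPM in ISch and 879 to 931 CPM in FID. Female FIDch replicate 4 had the lowest Grm2, Grm3, Grm4, Grm5 and Grm7 and the highest Grm8 of its group. Without it the number of receptors called stayed at 3 in female FIDch against FID, but Grm5 was no longer called and Grm2, higher in FIDch, was. The number stayed at 3 in FIDch against IS, and went from 1 to 2 in FIDch against ISch, where Grm8 was added. Female ISch replicate 1 also stood apart from the other 3 of its group. Its CA1 list summed to 799 CPM against 967 to 1090 CPM, and its oligodendrocyte list to 6140 CPM against 7460 to 8910 CPM. It had the lowest Grm2 and Grm4 and the highest Grm3, Grm5 and Grm7 of its group. This library and female FIDch replicate 4 each carry a library number from the range of the other one's group. What the numbers stand for is not given, and the part of both libraries in the results was not tested. A receptor met the study's criterion when its log2 fold change was over 0.2 in size and its unadjusted p under 0.05 in edgeR's quasi-likelihood test. The limits are the study's, which set them on edgeR's negative binomial fit in another program and named no quasi-likelihood test. The calls here are thus not the study's own calls. The adjusted p is the Benjamini-Hochberg value from that test over all genes tested. The comparisons with IS share the 4 IS rats of that sex, and those with FIDch share its rats. In bulk tissue, fewer cells of a type and less RNA per cell cannot be told apart.

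Grm4, which encodes the presynaptic group III receptor mGlu4, was lower in the choline-supplemented females than in the females without choline, on either iron background. Female IS rats had 10.1, 8.65, 10.6 and 11.1 CPM, and ISch rats had 5.63, 7.99, 7 and 7.65 CPM. Female FID rats had 12.4, 9.46, 11.2 and 13.5 CPM, and FIDch rats had 7.38, 7.52, 6.56 and 5.97 CPM. Every ISch and FIDch female thus lay below every IS and FID female. Against FID, the level in FIDch fell by 0.77 on the log2 scale (standard error 0.12, 95% interval -1.04 to -0.49, edgeR adjusted p = 0.0137). Against IS, it fell by 0.56 in FIDch (standard error 0.11, edgeR adjusted p = 0.0507) and by 0.52 in ISch (standard error 0.13, edgeR adjusted p = 0.0543), both at the criterion. All 3 of these differences met the criterion under each of 15 alternative fits, with adjusted p from 1.08e-05 to 0.0525 for FIDch against FID, and each had a 2-sided exact permutation p of 0.029, the smallest that 4 rats against 4 can give. FIDch and ISch females had nearly the same level, with a log2 difference of -0.04 (95% interval -0.34 to 0.26).

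In males the pattern of Grm4 was another one, with IS as the high group. Male IS rats had 9.37, 13.8, 10.6 and 11.9 CPM, and ISch rats had 9.68, 8.30, 8.12 and 8.21 CPM. The FID rats were widely spread at 8.41, 11.2, 7.28 and 5.28 CPM, and the FIDch rats lay close together at 7.31, 6.22, 7.72 and 7.90 CPM. All FIDch males were below all IS and all ISch males, while FID and ISch each overlapped IS. Against IS, the log2 fold change was -0.62 in FIDch (standard error 0.15, edgeR adjusted p = 0.228), -0.50 in FID (standard error 0.20, edgeR adjusted p = 0.786) and -0.41 in ISch (standard error 0.14, edgeR adjusted p = 0.395), all at the criterion. The FID call was lost without IS replicate 2, IS replicate 4, FID replicate 3 or FID replicate 4, and the ISch call without IS replicate 2. FID replicate 4, the lowest in Grm4, was also the library with a summed choroid plexus marker level of 389 CPM against 8.46 to 18.4 CPM in the other 3 FID males. Those 3 were in turn above every IS, ISch and FIDch male, which had 3.96 to 7.95 CPM. The part of FID replicate 4 and of these marker levels in the result was not tested. FIDch and FID males did not differ beyond their spread, with a log2 difference of -0.13 (95% interval -0.57 to 0.30).

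The change in Grm4 from IS to FID differed between females and males by 0.68 on the log2 scale (standard error 0.25), with a fold change of 0.20 in females and -0.50 in males. The change from FID to FIDch differed by -0.65 (standard error 0.25), with -0.77 in females and -0.13 in males. Both differences met the criterion, under each of 18 alternatives, and neither passed adjustment (edgeR adjusted p = 0.489 and 0.154). For ISch against IS the female and male changes, -0.52 and -0.41, differed by -0.12 (standard error 0.19), and for FIDch against IS, -0.56 and -0.62, by 0.07 (standard error 0.19).

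Grm8, which encodes the group III receptor mGlu8, also presynaptic, showed the largest fold changes of the 6 genes, and they were in females. Female IS rats had 4.49, 8.03, 5.98 and 6.09 CPM, and ISch rats had 5.19, 3.43, 3.39 and 5.53 CPM. In female FID rats the values were 10.4, 8.00, 5.68 and 8.02 CPM, and in FIDch rats 2.94, 3.46, 2.66 and 4.81 CPM. FIDch and FID did not overlap, whereas FIDch and ISch each overlapped IS. The level in FIDch was 0.429 times that in FID, or -1.22 on the log2 scale (standard error 0.22, 95% interval -1.70 to -0.74, edgeR adjusted p = 0.0186, exact permutation p = 0.029). Against IS it was -0.83 in FIDch (standard error 0.22, edgeR adjusted p = 0.134) and -0.49 in ISch (standard error 0.21, edgeR adjusted p = 0.275), both at the criterion. The ISch call was lost in 6 of 15 alternatives, among them without IS replicate 2, 3 or 4 or ISch replicate 2 or 3, while the FIDch calls held in all 15 alternatives, with adjusted p from 8.53e-06 to 0.0626 against FID. Female FID rats had a mean of 8.02 ± 1.92 CPM (SD, n = 4) against 6.15 ± 1.45 CPM in IS, a log2 fold change of 0.38 that missed the criterion (95% interval -0.03 to 0.79). This change met the criterion in 4 of 15 alternatives, DESeq2 among them.

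Male levels of Grm8 overlapped between all 4 groups, at 5.25 to 7.93 CPM in IS, 4.67 to 8.71 CPM in ISch, 6.84 to 8.22 CPM in FID and 4.28 to 7 CPM in FIDch. Grm8 met the criterion in none of the 5 male comparisons (edgeR), and its lowest male fold change was -0.34 for FIDch against FID (95% interval -0.71 to 0.02). The female minus male difference in that change was -0.90 on the log2 scale (standard error 0.29, edgeR adjusted p = 0.0995) and met the criterion under each of 18 alternatives. For FIDch against IS the female minus male difference was -0.69 (standard error 0.31, edgeR adjusted p = 0.333). It fell short of the criterion in 11 of 18 alternatives, all of them with 1 library left out.

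Grm7, which encodes mGlu7, a receptor of the presynaptic active zone with low affinity for glutamate, showed no call. Its 32 values lay between 43.4 and 55.6 CPM, and the group means between 45.7 and 52.5 CPM. Across the 10 comparisons its log2 fold changes ran from -0.13 for FIDch against FID in males (95% interval -0.31 to 0.04) to 0.07 for FID against IS in females (95% interval -0.04 to 0.18). Of the group III genes, Grm4 and Grm8 both had their lowest female mean in FIDch.

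**Figure D1:**
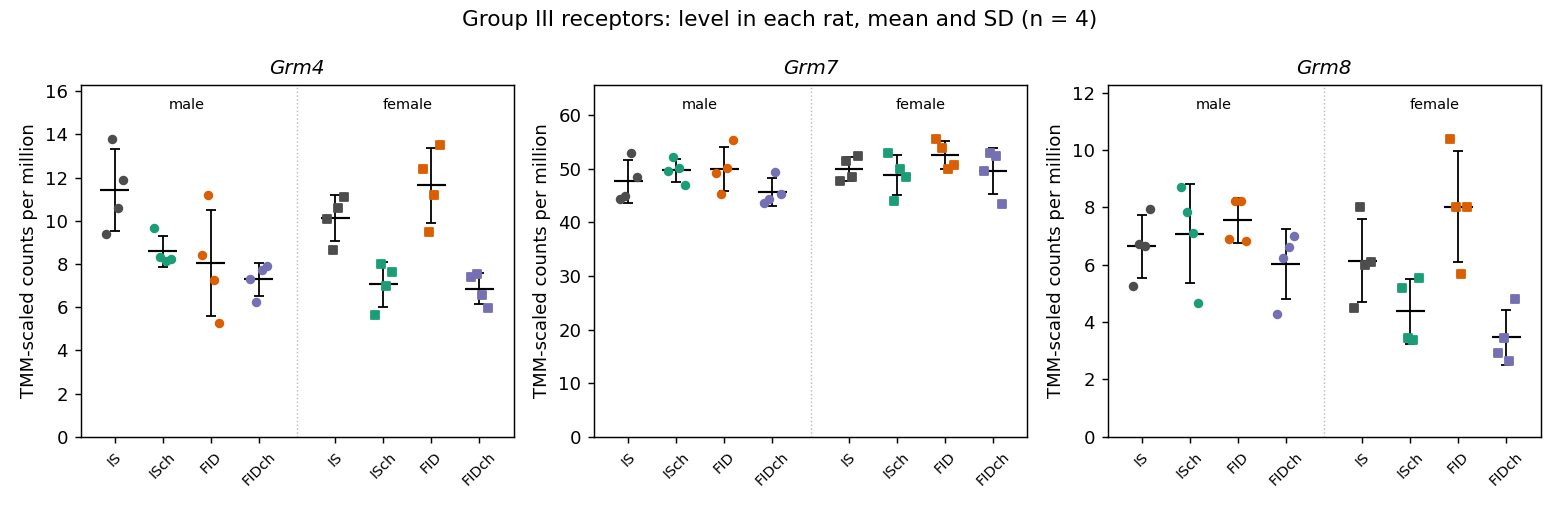
Level of Grm4, Grm7 and Grm8 in each rat, in TMM-scaled CPM on a linear axis from 0, by diet group and sex. Points are rats, horizontal lines group means and bars the SD of 4 rats. The female ISch and FIDch rats had 5.63 to 7.99 CPM of Grm4, below the 8.65 to 13.5 CPM of the female IS and FID rats, and Grm7 stayed within 43.4 to 55.6 CPM in every group.

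Grm2, which encodes the group II receptor mGlu2, was higher in ISch and FIDch females than in IS females, the opposite direction to Grm4 and Grm8. Female IS rats had 45.4, 52.3, 57.8 and 56.7 CPM, and ISch rats had 62.9, 75.0, 69.6 and 79.7 CPM. Female FID rats had 62.6, 52.7, 57.9 and 56.0 CPM, and FIDch rats had 64.2, 63.2, 75.0 and 57.3 CPM. The ISch rats were all above the IS and FID rats, and the FIDch rats overlapped all other groups. Grm2 rose 1.35-fold in ISch against IS, or 0.43 on the log2 scale (standard error 0.087, 95% interval 0.24 to 0.62, edgeR adjusted p = 0.0271, exact permutation p = 0.029). It was at the criterion in all 15 alternatives, with adjusted p from 0.000222 to 0.0857. In FIDch against IS the fold change was 0.29 (standard error 0.093, edgeR adjusted p = 0.22), at the criterion. In FIDch against FID it was 0.18 (95% interval 0.00 to 0.35), short of the criterion, which it met in 3 of 15 alternatives.

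Male rats had means of 57.3 ± 5.57 CPM in IS, 56.0 ± 4.10 CPM in ISch, 51.8 ± 14.5 CPM in FID and 60.5 ± 3.81 CPM in FIDch (SD, n = 4), and Grm2 met the criterion in none of the 5 male comparisons (edgeR). The wide spread in FID came from a split within the group, with 65.2 and 63.3 CPM in replicates 1 and 3 and 41.1 and 37.7 CPM in replicates 2 and 4. For ISch against IS, the female change of 0.43 and the male change of -0.03 differed by 0.46 (standard error 0.13, edgeR adjusted p = 0.0847), at the criterion in each of 18 alternatives. For FIDch against ISch they differed by -0.27 (standard error 0.12, edgeR adjusted p = 0.403), with -0.15 in females and 0.11 in males. This second difference missed the criterion in 11 of 18 alternatives.

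Grm3, which encodes mGlu3, the group II receptor that also responds to the peptide N-acetylaspartylglutamate (NAAG), was lower in FIDch than in ISch rats of both sexes. Female ISch rats had 87.8, 76.2, 85.2 and 80.4 CPM, and FIDch rats had 70.8, 75.4, 68.1 and 57.5 CPM, with no overlap. Male ISch rats had 96.4, 85.7, 79.5 and 75.5 CPM, and FIDch rats had 61.7, 78.3, 67.9 and 75.6 CPM, which overlapped. The log2 fold change was -0.28 in females (standard error 0.082, edgeR adjusted p = 0.556, exact permutation p = 0.029) and -0.27 in males (standard error 0.086, edgeR adjusted p = 0.21, exact permutation p = 0.086). Both met the criterion, and the female minus male difference was -0.03 (standard error 0.13). The male call was lost with the 4 diet groups in a single fit and without ISch replicates 1 and 2 together. These carry library names of a different form, as does male FIDch replicate 2. In females the 4 ISch values were also above the IS values of 72.9, 75.3, 67.1 and 74.5 CPM, but the log2 fold change of 0.18 was short of 0.2 (edgeR adjusted p = 0.136, exact permutation p = 0.029). Female FID rats, with 73.0 to 80.2 CPM, overlapped both groups. In male IS rats Grm3 ranged from 53.5 to 91.5 CPM, and the IS group overlapped each of the others.

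Grm5, which encodes mGlu5, the postsynaptic group I receptor, met the criterion in 2 male comparisons and 1 female comparison. Male IS rats had 81.3, 126, 141 and 137 CPM, and ISch rats had 153, 148, 145 and 146 CPM. Male FID rats had 127, 129, 175 and 154 CPM, and FIDch rats had 114, 124, 130 and 142 CPM. All ISch males were above all IS and all FIDch males, with a spread among ISch males of 3.36 CPM (SD) against 27.4 CPM among IS males. Against ISch, the FIDch log2 fold change was -0.22 (standard error 0.063, edgeR adjusted p = 0.172, exact permutation p = 0.029), which missed the criterion with the 4 diet groups in a single fit and without FIDch replicate 1. For ISch against IS it was 0.29 (standard error 0.13, edgeR adjusted p = 0.472, exact permutation p = 0.029). That call was lost in 7 of 16 alternatives: without IS replicate 1 or 2, when any ISch library was dropped, and when ISch replicates 1 and 2 were dropped together. Without IS replicate 1, the low library of its group, the fold change was 0.13. Female values ran from 124 to 160 CPM in IS, 131 to 166 CPM in ISch, 139 to 159 CPM in FID and 108 to 144 CPM in FIDch. Against FID the female FIDch log2 fold change was -0.21 (standard error 0.083, edgeR adjusted p = 0.211), lost with library size alone as scaling and without FID replicate 2, FID replicate 4 or FIDch replicate 4. Without the last of these, the FIDch library that stood apart, the fold change was -0.13. The male change in the same comparison was also -0.21 (standard error 0.10) and missed the criterion, which it met in 5 of 15 alternatives.

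**Figure D2:**
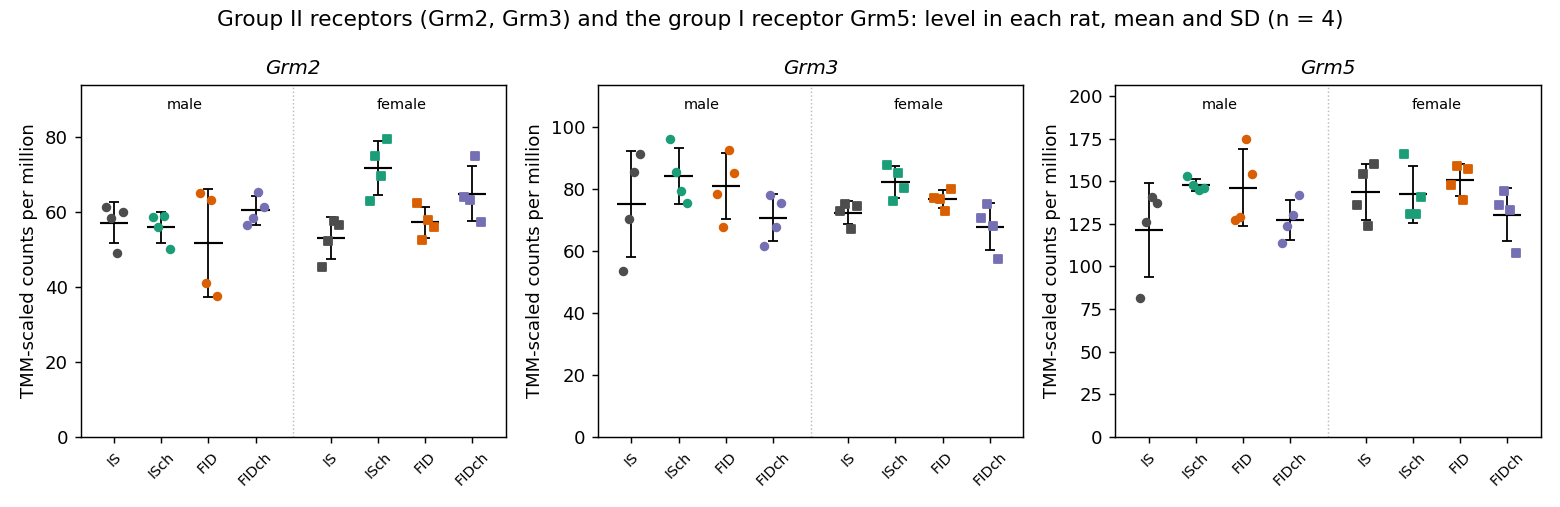
Level of Grm2, Grm3 and Grm5 in each rat, in TMM-scaled CPM on a linear axis from 0, by diet group and sex. Points are rats, horizontal lines group means and bars the SD of 4 rats. The female ISch rats had 62.9 to 79.7 CPM of Grm2, above the female IS and FID rats, and male IS replicate 1 had the lowest Grm5 of its group at 81.3 CPM.

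Counted over the 6 receptors, females had more calls than males in FIDch against FID, FIDch against IS and ISch against IS, and males had more in FID against IS and FIDch against ISch. These counts were not tested against each other, and the female libraries were deeper. In FIDch against FID, 3 of 6 met the criterion in females, all lower (Grm4, Grm5 and Grm8), where 12.7% of all genes tested were called and 7.07% called lower, and 2 of the 3 had an adjusted p under 0.05, against 2.28% of all genes. In males 0 of 6 met the criterion there or had an unadjusted p under 0.05 in edgeR's test, while 13.0% of all genes were at the criterion and 17.8% had such a p, and DESeq2 called 0. In ISch against IS, 3 of 6 were called in females (Grm2 higher, Grm4 and Grm8 lower), against 10.3% of genes, and 1 had an adjusted p under 0.05, against 2.54%. In males 2 of 6 were called there (Grm5 higher, Grm4 lower), against 8.06%. In FIDch against IS, 3 of 6 were called in females (Grm2 higher, Grm4 and Grm8 lower), against 8.98%, and 1 of 6 in males (Grm4), against 6.12%.

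FID against IS gave 0 calls of 6 in females, where 6.47% of genes were called. None of the 6 had an unadjusted p under 0.05 in edgeR's test there, against 11.2% of genes, while DESeq2 called 1. In males it gave 1 call (Grm4), against 4.62%. In FIDch against ISch, 1 of 6 was called in females (Grm3), against 4.57%, and 2 of 6 in males (Grm3 and Grm5, both lower), against 8.12%, or 5.03% called lower. The groups of rats did not overlap for 3 receptors in female ISch against IS (10.1% of all genes), 2 in female FIDch against FID (11.9%), 1 in female FIDch against IS (7.80%) and 1 in female FIDch against ISch (5.08%). In males this held for 1 receptor in FIDch against IS (5.36%), 1 in ISch against IS (6.14%) and 2 in FIDch against ISch (7.69%). The exact permutation test was run for 60 pairs of groups over the 6 genes and gave 11 at its smallest value, 0.029, for which the Benjamini-Hochberg adjusted value is 0.156. Female minus male differences met the criterion for 1 receptor in FID against IS (7.64% of genes), 1 in FIDch against IS (12.9%), 1 in ISch against IS (14.2%), 2 in FIDch against FID (17.7%) and 1 in FIDch against ISch (9.89%), and none had an adjusted p under 0.05 in edgeR's test. The median log2 fold change of the 6 receptors was -0.20 in female FIDch against FID and -0.17 in the same male comparison, and that of all genes tested was within 0.01 of 0 in every comparison.

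**Figure D3:**
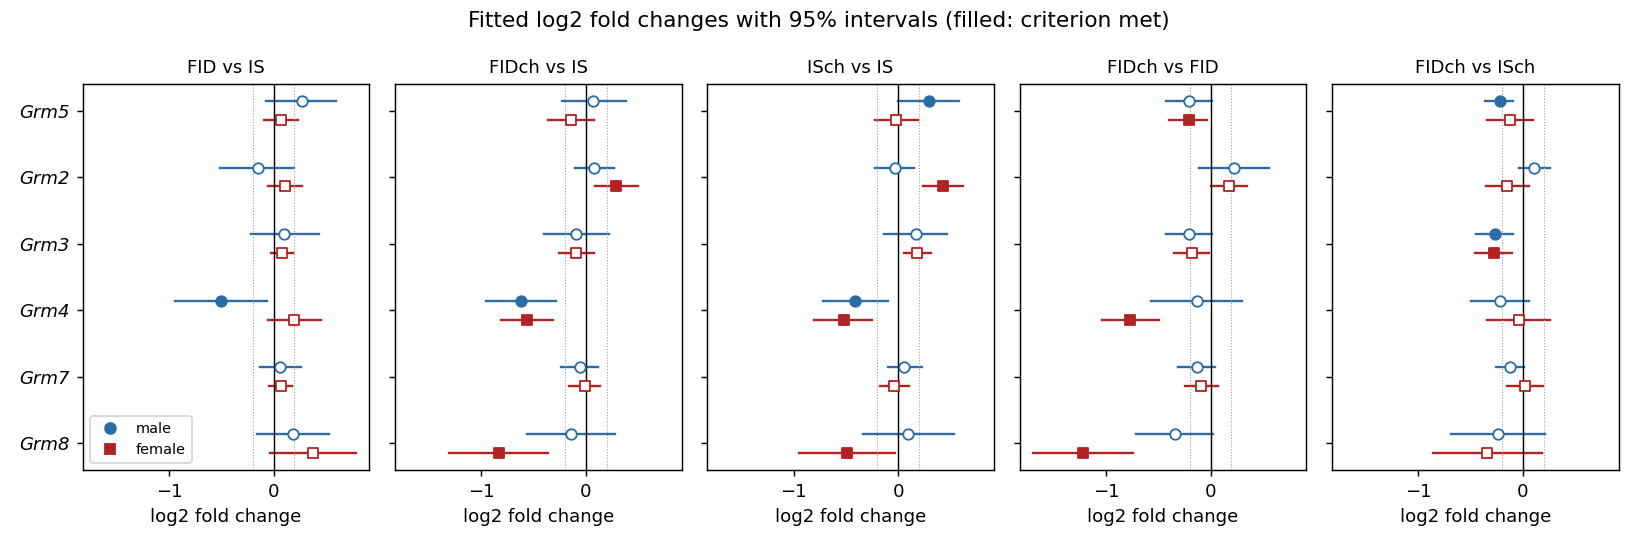
Log2 fold changes of the 6 receptors from edgeR with 95% intervals, for the 5 comparisons, in males (circles) and females (squares). Filled symbols met the criterion and dotted lines mark 0.2 in either direction. The lowest value is Grm8 in female FIDch against FID, -1.22, and Grm7 has no filled symbol.

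Whether choline changed the receptors alike on both iron backgrounds was tested as an iron by choline interaction within each sex. In males 1 of 6 met the criterion, Grm5, with an interaction of -0.49 on the log2 scale (standard error 0.19, 95% interval -0.88 to -0.10, edgeR adjusted p = 0.237), where 14.4% of all genes were called. In females 2 of 6 met it, against 7.33% of genes. These were Grm3, at -0.36 (standard error 0.098, edgeR adjusted p = 0.283), and Grm8, at -0.73 (standard error 0.32, edgeR adjusted p = 0.516). In all 3 the choline-supplemented rats were relatively lower on the formerly iron-deficient background. For Grm3 the females went from 72.5 to 82.4 CPM in the mean on the iron-sufficient background and from 76.8 to 68.0 CPM on the formerly iron-deficient one. The calls of Grm3 and of male Grm5 held in all 22 alternatives and that of Grm8 was lost in 11. For Grm4 in females the interaction was -0.24 (95% interval -0.63 to 0.15), short of the criterion.

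Levels of some regional marker genes also differed between the female groups. The dentate gyrus list (Prox1, C1ql2, Dsp, Tdo2, Stxbp6 and Npnt) summed to 320 to 366 CPM in ISch and 292 to 331 CPM in FIDch, against 227 to 257 CPM in IS and 236 to 256 CPM in FID. Of the 5 markers tested, 5 were called higher in ISch against IS, where 5.14% of all genes were. Of these, 4 had an adjusted p under 0.05 in edgeR's test, against 2.54% of genes. In FIDch against IS, 4 were called higher, against 4.16% of genes. Dsp, a desmosomal protein gene of granule cells, had between 1.60 and 2.22 CPM in IS and between 11.9 and 18.2 CPM in ISch. Prox1, a transcription factor of these cells, had 112 to 135 CPM in IS and 147 to 183 CPM in ISch. Tdo2 was at 0.122 CPM or lower in every female library. In males the dentate list summed to 218 to 279 CPM, with all groups overlapping.

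The neocortex list (Tbr1, Rorb, Cux2, Fezf2, Lamp5 and Tshz2) summed to 153 to 172 CPM in female FID and 128 to 142 CPM in female FIDch. Of its genes, 4 of 6 were called lower in FIDch against FID, against 7.07% of all genes. An adjusted p under 0.05 in edgeR's test was reached by 3 of them, against 2.28% of genes. The thalamus list (Tcf7l2, Prkcd, Lef1, Rora, Plekhg1 and Slc17a6) summed to 101 to 111 CPM and 81.3 to 97.4 CPM in these groups, with 2 of 6 called lower. The striatum list summed to 26.3 to 30.2 CPM and 19.7 to 24.5 CPM, with 2 of 6 called lower. Both counts stand beside the same 7.07% of all genes. The CA1 list summed to 879 to 931 CPM in FID and 540 to 1170 CPM in FIDch. Of its genes, 0 of 6 were called there, against 12.7% of all genes. In female ISch against IS, 0 of 6 neocortex markers were called lower and 2 higher (edgeR), against 5.15% and 5.14% of all genes. The neocortex list summed to 138 to 166 CPM in ISch against 140 to 156 CPM in IS. The thalamus and striatum lists each had 0 of 6 genes called in that comparison, against 10.3% of all genes. Of the glial lists, the oligodendrocyte list had 0 of 6 genes called in female ISch against IS and 0 of 6 in FIDch against FID. The microglia list (Cx3cr1, P2ry12, Csf1r, Aif1, Tmem119 and C1qa) summed to 213 to 223 CPM in IS and 207 to 226 CPM in FID, against 181 to 207 CPM in ISch and 190 to 197 CPM in FIDch. Of its 6 genes, 2 were called lower in ISch against IS (Cx3cr1 and P2ry12), against 5.15% of all genes. In FIDch against FID 1 was called lower (Cx3cr1), against 7.07% of genes. None of these had an adjusted p under 0.05 in edgeR's test. Of 6 astrocyte markers, 2 were called higher in FIDch against FID, where 5.59% of all genes were. They were Aldh1l1, by 0.36 (edgeR adjusted p = 0.0346), and Aqp4, by 0.30 (edgeR adjusted p = 0.0239) on the log2 scale. In ISch against IS 1 was called higher, Aldh1l1, by 0.36 (edgeR adjusted p = 0.0215), against 5.14% of genes. The astrocyte list summed to 2100 to 2340 CPM in FID and 2300 to 2450 CPM in FIDch, which overlapped. IS, at 2300 to 2390 CPM, and ISch, at 2240 to 2540 CPM, overlapped too. The part of these marker levels in the receptor differences was not tested.

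**Figure D4:**
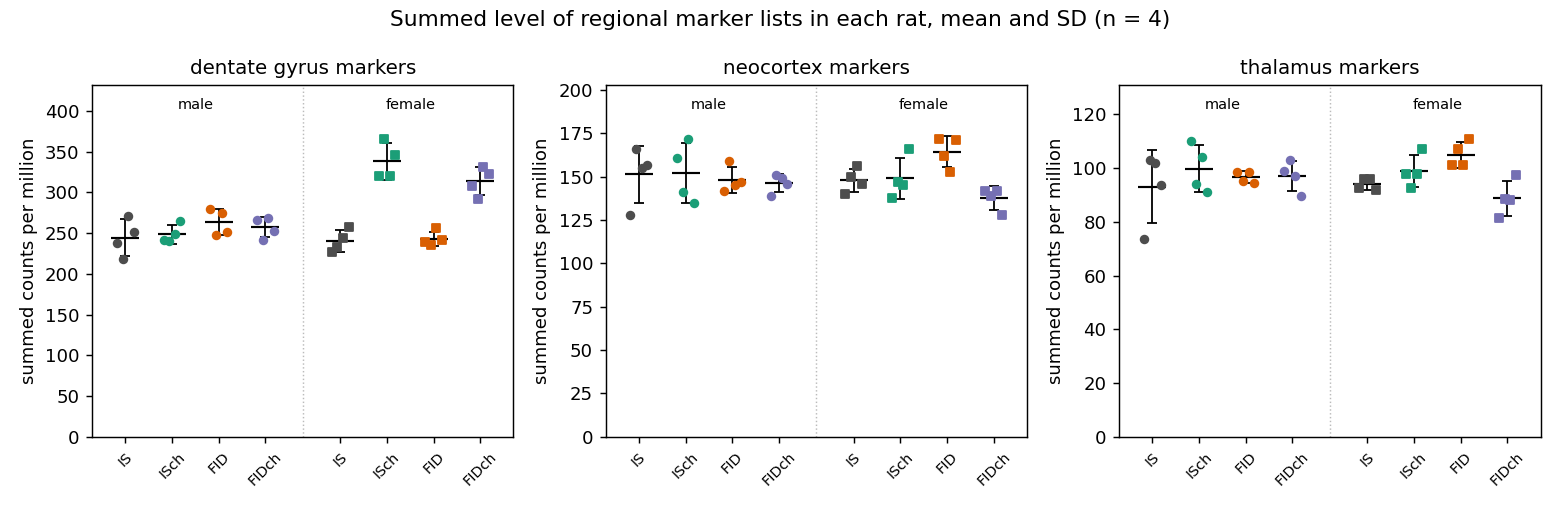
Summed CPM of the dentate gyrus, neocortex and thalamus marker lists in each rat, by diet group and sex, on linear axes from 0, with group means and SD of 4 rats. The female ISch and FIDch rats, at 292 to 366 CPM of dentate gyrus markers, lay above every female IS and FID rat, and the male groups overlapped.

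Of 55 genes listed for the receptors' partners and signalling, 54 were in the tables, all of them tested. In female FIDch against FID, 1 was called higher and 11 lower, 22.2% of the 54 against 12.7% of all genes, and 5 had an adjusted p under 0.05, all lower. Among the scaffolds and binding partners, 4 of 16 were called lower, and of all genes tested 7.07% were. Shank1, a postsynaptic density scaffold that links to Homer, went from 798 ± 63.3 CPM in FID to 608 ± 67.1 CPM in FIDch (SD, n = 4; log2 fold change -0.39, edgeR adjusted p = 0.0314). Elfn1, a synaptic adhesion protein that binds group III receptors across the synapse, went from 41.8 ± 3.73 to 32.5 ± 1.5 CPM (-0.36, edgeR adjusted p = 0.0273). For both genes the FIDch and FID females did not overlap, as for Grm4 and Grm8.

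In the Gq and phospholipase C arm, 3 of 11 were called lower in that comparison. Prkcb, which encodes a conventional protein kinase C isoform, had a log2 fold change of -0.36 (edgeR adjusted p = 0.0114). In the supply and clearance of glutamate and NAAG, 2 of 12 were called lower and 1 higher. Slc17a6, the vesicular glutamate transporter VGLUT2, typical of subcortical inputs, went from 24.3 ± 2.82 CPM in female FID to 14.9 ± 2.37 CPM in FIDch (SD, n = 4; -0.71, edgeR adjusted p = 0.0145). It is also in the thalamus list above. In the Gi/o, adenylyl cyclase and GIRK channel arm, 2 of 13 were called lower, again beside 7.07% of all genes.

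In the other female comparisons, the listed genes called were 6 higher and 2 lower in FID against IS (14.8% of 54 against 6.47% of all genes), 5 higher and 1 lower in ISch against IS (11.1% against 10.3%), 4 lower in FIDch against IS (7.41% against 8.98%) and 6 lower in FIDch against ISch (11.1% against 4.57%). For the iron by choline interaction, 0 were called higher and 14 lower in females (25.9% against 7.33%). In males 3 were called higher and 9 lower for that term (22.2% against 14.4%). None of these interactions had an adjusted p under 0.05 in edgeR's test. Adcy8, a calcium-stimulated adenylyl cyclase, rose in FID against IS from 17.1 ± 1.98 to 26.3 ± 2.42 CPM (SD, n = 4; 0.62, edgeR adjusted p = 0.017). Grasp, which encodes the scaffold tamalin that binds group I receptors, rose in ISch against IS from 43.5 ± 2.30 to 55.7 ± 4.62 CPM (SD, n = 4; 0.35, edgeR adjusted p = 0.021). Grm6, a group III receptor of retinal bipolar cells, was called in none of the comparisons of either sex (edgeR), with log2 fold changes of -0.19 in female and -0.29 in male ISch against IS.

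Male calls among the 54 genes were 1 higher and 1 lower in FID against IS (3.70% against 4.62% of all genes), 2 higher and 1 lower in FIDch against IS (5.56% against 6.12%), 4 higher and 1 lower in ISch against IS (9.26% against 8.06%), 1 higher and 3 lower in FIDch against FID (7.41% against 13.0%) and 3 lower in FIDch against ISch (5.56% against 8.12%). None had an adjusted p under 0.05. Glul, the astrocyte glutamine synthetase, had 1062 ± 68.0 CPM in FID and 1259 ± 76.4 CPM in FIDch (SD, n = 4; 0.24, edgeR adjusted p = 0.0763), a call lost without FIDch replicate 3 (0.20). Slc17a6 was lower in FIDch than in ISch (-0.57, edgeR adjusted p = 0.207) and Homer3, a Homer scaffold, lower in FID than in IS (-0.31, edgeR adjusted p = 0.786), each at the criterion. The Slc17a6 call was lost without ISch replicates 1 and 2 together (-0.42). Homer1 (-0.19), Gnai1 (-0.16) and Gnaq (-0.15) in FIDch against ISch were short of the fold limit. Adcy8 in the same comparison (-0.29) and Itpr1, an inositol trisphosphate receptor, in ISch against IS (0.25) met the criterion. The Adcy8 call was lost with the 4 diet groups in a single fit. That of Itpr1 was lost without IS replicate 1 (0.16), ISch replicate 1 (0.20), ISch replicate 2 (0.23) or both of these ISch libraries (0.13).

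**Figure D5:**
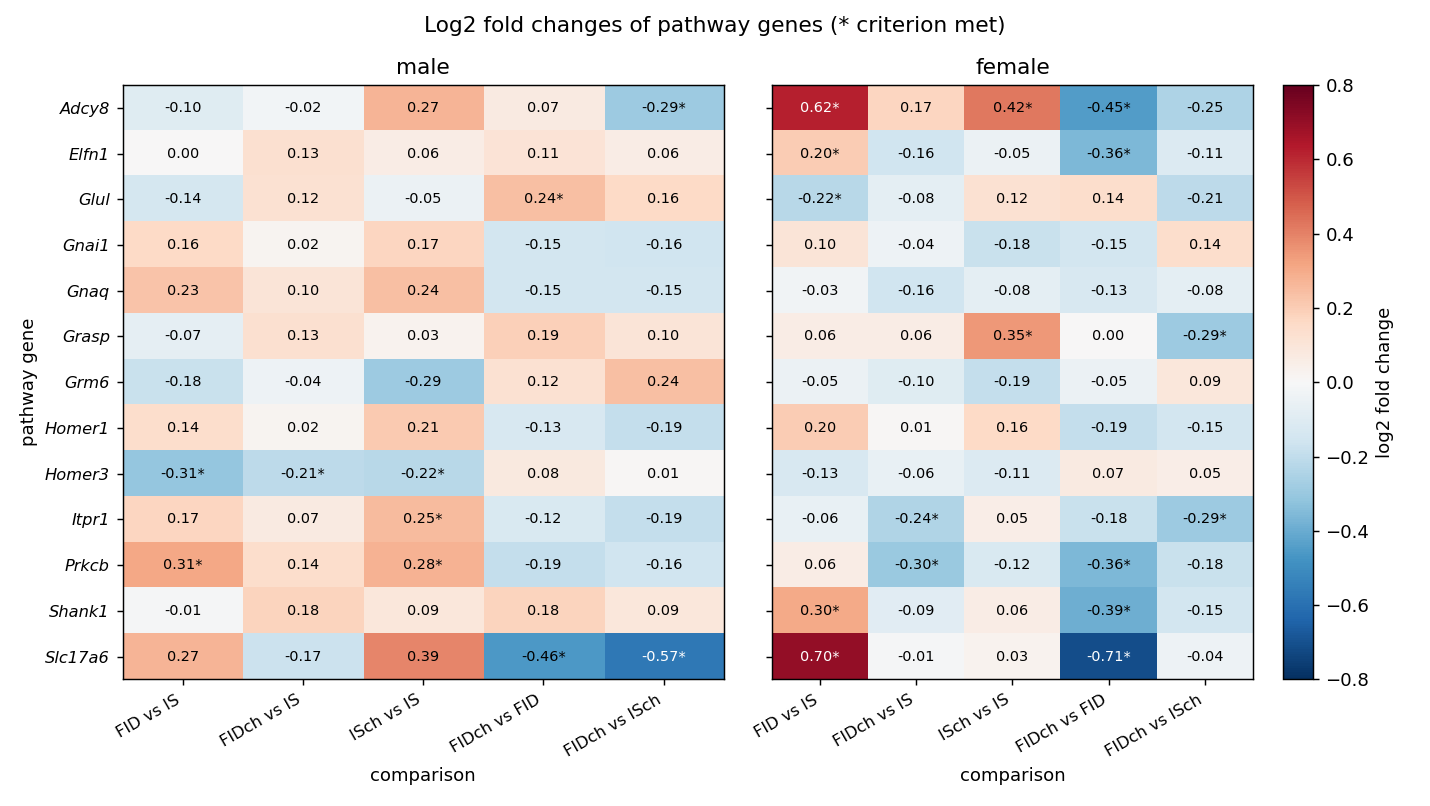
Log2 fold changes of 13 named pathway genes in the 5 comparisons, males on the left and females on the right, in colour from -0.8 to 0.8 and as numbers, with a star where the criterion was met. In female FIDch against FID the starred cells are all below 0, among them Slc17a6 at -0.71.

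Among 12638 genes with a symbol tested in both sexes, the gene whose level ran most like each receptor over the libraries was found from the mean of Pearson's r over 16 male and 16 female libraries. The libraries share diet groups, and single libraries can weigh on r, so these values are descriptions. Male IS replicate 1 had the lowest Grm3 (53.5 CPM) and Grm5 (81.3 CPM) of its group, where Slc1a2 ran from 179 to 490 CPM. Female FIDch replicate 4 was lowest of its group in Grm3 (57.5 CPM), Grm5 (108 CPM) and Grm7 (43.4 CPM). The part of these libraries in the correlations was not tested. Grm5 ran like Sgip1 (0.93) and Cacna2d1 (0.93), and Grm3 most like Slc1a2 (0.89), Hipk2 (0.88) and Spag9 (0.88). Slc1a2 encodes the astrocyte glutamate transporter GLT-1. For Grm8 they were Cbln2 (0.81), a secreted synapse organizer, Vwc2l (0.79) and Ankrd34b (0.78), and for Grm7 Usp29 (0.80), Mpp6 (0.78) and Ttc3 (0.77). Grm2 had Map3k14 (0.75), Nuak1 (0.72) and Fmnl1 (0.70), and Grm4 had Edn1 (0.71), Fhod3 (0.69) and Tdrp (0.68). Between receptors, r for Grm3 and Grm5 was 0.86 in males and 0.73 in females, and for Grm4 and Grm8 it was 0.24 in males and 0.65 in females.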

How the data were processed

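Raw counts per gene, not normalized or filtered, were deposited by the authors in a male and a female table. Per the labels, the reads were trimmed with Trimmomatic, aligned with HISAT2 to Rnor_6.0 and counted with featureCounts of the Subread package. Handling of strand and of reads with several positions is not given in the sources used here. In RefSeq's annotation of GRCr8, Grm3 overlaps the protein-coding gene Elapor2 and Grm7 overlaps 1 protein-coding locus without a gene name, so counts without strand could mix them.

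The members and gene lists were chosen with earlier results of these data known. The tests used edgeR 4.0.16 (TMM, filterByExpr, quasi-likelihood test), each pair of groups fitted separately as in the study, with DESeq2 1.42.0 as an alternative, under R 4.3.3. The interaction of iron and choline was fitted over the 16 libraries of a sex, and the difference between sexes over the 16 libraries of a comparison. Criterion and adjustment are as in the text. The pair, interaction and sex difference fits of edgeR and the DESeq2 pair fit were each tested on simulated data for 1 comparison or more. Replicates were taken as separate rats, as the labels call them biological, and the chi-square per gene between 48 pairs was 2.02 to 25.2 times counting noise. Replicate numbers did not pair the rats (3 of 24 male and 1 of 24 female same-number pairs correlated over 0.1). Alternatives were RLE size factors, library size alone, DESeq2, all genes with at least 1 count, 1 CPM in 4 samples, the 4 diet groups in a single fit, a replicate block and each library left out. Leaving out male ISch replicates 1 and 2 together, and the alternatives of the sex difference, were chosen after seeing the data. Named are the 6 receptors, the listed pathway genes at the criterion with an adjusted p under 0.05, for a list and sex without any the 2 with the smallest unadjusted p, and the 3 genes most like each receptor. Some genes that this rule names are not reported here, though the list counts include them. Counts of 0 allow up to 3 counts at 95% confidence. That limit and all intervals on counts cover counting error only.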

Additional observations from a re-analysis of the deposited data

Results flagged for a closer look

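Grm4 in male ISch replicate 1 stood apart from its group, at 9.68 CPM against 8.12 to 8.30 CPM in the other 3 rats. It was the single value of 48 groups of 4 rats whose gap to the rest was past Dixon's critical value, and chance flags about 1 group in 20.

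6 female minus male differences in a diet effect met the criterion, each on the log2 scale. Grm4 differed by 0.68 in FID against IS and by -0.65 in FIDch against FID, and Grm8 by -0.69 in FIDch against IS and by -0.90 in FIDch against FID. Grm2 differed by 0.46 in ISch against IS and by -0.27 in FIDch against ISch. None of the 6 had an adjusted p under 0.05 in edgeR's test over all genes, where the lowest was 0.0847 (Grm2, ISch against IS), and sex, batch and extraction kit cannot be told apart.

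The effect of choline differed between the iron backgrounds at the criterion for Grm5 in males (-0.49) and for Grm3 (-0.36) and Grm8 (-0.73) in females, none with an adjusted p under 0.05 in edgeR's test.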

How the results depend on the processing

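Of the alternative values of the 6 receptors' fold changes and interactions, 1069 kept direction and side of the criterion, 37 lost the call, 44 gained it and 26 changed sign, and the cause of a change was not tested. The calls of Grm4 in female FIDch against FID, FIDch against IS and ISch against IS, of Grm8 in female FIDch against FID and of Grm2 in female ISch against IS held in all 15 alternatives of each.

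The number of receptors called in male FID against IS was 2 with all genes with at least 1 count, 2 with the replicate block and 0 to 1 with a library left out. In male FIDch against FID it was 2 with all genes, 1 with the block and 0 to 2 with a library left out. In male FIDch against ISch it was 0 with the 4 groups in a single fit, 1 without ISch replicates 1 and 2 together and 1 to 2 with a library left out. In male ISch against IS it was 1 without ISch replicates 1 and 2 and 0 to 2 with a library left out. The male interaction gave 2 with all genes and 1 to 4 with a library left out, and male FIDch against IS 1 to 2. In female FID against IS it was 1 with DESeq2, 1 with all genes and 0 to 1 with a library left out. With a library left out, it was 1 to 2 in female FIDch against ISch, 1 to 2 in the female interaction, 2 to 3 in female ISch against IS, 2 to 4 in female FIDch against FID and 3 in female FIDch against IS. Sex differences called with a library left out were 1 to 2 for FID against IS, 0 to 1 for FIDch against IS, 1 to 2 for ISch against IS, 2 for FIDch against FID and 0 to 1 for FIDch against ISch, the last also 0 with library size alone.

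The replicate block, which is not the study's design, ended the call of Grm8 in female ISch against IS (log2 fold change -0.49), added Grm5 in male FID against IS (0.28) and in male FIDch against FID (-0.20), and changed no other receptor call.

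The fold changes that changed sign were uncalled in the fits that the text reports. With a library left out, the male values ran from -0.03 to 0.21 for Grm3 in FID against IS, -0.08 to 0.15 for Grm5, -0.23 to 0.02 for Grm3 and -0.25 to 0.01 for Grm8 in FIDch against IS, -0.02 to 0.25 for Grm8 and -0.10 to 0.01 for Grm2 in ISch against IS, and -0.29 to 0.08 for Grm4 in FIDch against FID. The female values ran from -0.05 to 0.04 for Grm7 in FIDch against IS, -0.10 to 0.04 for Grm5 and -0.08 to 0.01 for Grm7 in ISch against IS, -0.14 to 0.02 for Grm4 and -0.02 to 0.08 for Grm7 in FIDch against ISch, and -0.09 to 0.01 for Grm7 in the interaction. Without male ISch replicates 1 and 2 together, Grm8 had -0.18 in ISch against IS and 0.03 in FIDch against ISch. With library size alone, Grm7 had 0.00 in female FIDch against IS.

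Over all genes the number at the criterion moved by more than 1.5 times in male FID against IS (640, 392 without IS replicate 1 and 1236 without IS replicate 3), male FIDch against IS (838, 1267 without IS replicate 3), male ISch against IS (1125, 679 without ISch replicates 1 and 2 together and 1811 without IS replicate 3) and female FIDch against ISch (663, 1025 without FIDch replicate 4). Grm4 and Grm8 rest on at least 22 counts in a male library and 60 in a female library, which limits the precision of their male values in particular.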
